A study of Homo sapiens with 14 samples.

Results

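The genes described here encode the proteins of the cytosolic ribosome. They were taken as the genes on probe sets annotated to a single gene whose symbol is RPL or RPS with digits, with or without the endings A, X or L, together with the stalk genes RPLP1 and RPLP2. Kinases of the RPS6K family, pseudogenes and mitochondrial ribosomal proteins were left out, and each gene was read from its probe set with the highest mean signal. The rule gave 55 of the 11963 genes that had such a probe set. Of these, 54 were above the filter on dim probe sets and were tested among 7720 genes, 33 of the large subunit (RPL) and 21 of the small subunit (RPS). RPL3L, a homolog of RPL3 known from muscle, was below the filter with a mean signal of 25.1. RPLP2 (256) and RPL27A (495) were the dimmest tested, and 50 of the 54 had a mean signal above 5000. A further 16 genes, among them RPL4, RPL5, RPL10 and RPS3A, were found only on probe sets naming several genes, and 9 of the 80 names of this kind in the RefSeq table, RPLP0 among them, were not analysed here.

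The cells were U2OS, a human osteosarcoma line, carrying a stable ER-E2F1 fusion, in which the transcription factor E2F1 is held inactive by an estrogen receptor domain until 4-hydroxytamoxifen (OHT) is added. All groups carried ER-E2F1, a lentivirus and 24 h without serum. The virus encoded a scrambled hairpin or 1 of 2 hairpins, shFOXO33 and shFOXO707, each aimed at both FOXO1 and FOXO3, and serum was withdrawn 24 h after infection. The last 6 h were spent with or without 20 nM OHT in serum-free medium. Scrambled cells had 4 arrays without and 4 with OHT, and each hairpin had 1 array without and 2 with OHT. The transfection label of the 4 scrambled arrays with OHT carries the suffix of the untreated ones, while their titles and treatment labels both give OHT, and the groups follow the titles. It is not stated in the labels whether the arrays of a group came from different cultures or whether the line was a single clone. The p-values therefore measure only how far these samples spread, part of which may be technical. OHT was not given to cells lacking the fusion. In such bulk RNA, fewer cells of a kind and less RNA per cell cannot be told apart.

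The ribosome is built from ribosomal RNA, transcribed by RNA polymerase I, and a set of proteins made in nearly matched amounts from many scattered genes. Most of these messages begin with a C followed by an unbroken stretch of pyrimidines, the 5′ terminal oligopyrimidine (TOP) motif, through which mTORC1 signalling and the protein LARP1 control their translation. Their messages are long-lived and among the most abundant in growing cells. Several ribosomal proteins also act outside the ribosome, such as RPL5 and RPL11, which bind MDM2 when ribosome assembly fails.

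The RefSeq promoter table (GRCh38.p14) matched 47 of the 54 tested genes. A run of at least 7 pyrimidines touching the 5 bases on either side of an annotated start was present in 36 of 47 (76.6%), against 18.6% of all 27305 genes in that table. The median run among the 47 was 11 bases and the longest 22. The windows below run from 10 bases before the start to 20 bases after it, with the run at the start in capitals. They show 2 genes near the low end (RPL18, RPS14) and 2 near the high end (RPL35, RPL24) of the responses to OHT on the probe sets used, all with a run. Also shown are RPS27L and RPL10L, which stood apart in the results and have no such run. RPL27, also near the high end, has none either.
RPL18: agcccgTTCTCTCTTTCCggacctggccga
RPS14: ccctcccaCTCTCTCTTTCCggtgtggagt
RPL35: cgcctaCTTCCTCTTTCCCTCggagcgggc
RPL24: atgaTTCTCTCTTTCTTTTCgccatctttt
RPS27L: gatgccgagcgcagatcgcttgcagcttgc
RPL10L: gtagttaagagagcgcattttgacttcgag
These lie on the minus strand at chr19:48619159-48619188 (RPL18), chr5:150449720-150449749 (RPS14), chr9:124861938-124861967 (RPL35), chr3:101686699-101686728 (RPL24), chr15:63157458-63157487 (RPS27L) and chr14:46651762-46651791 (RPL10L), each spanning the start of the first exon. Over the 250 bases before and 50 after the start, on both strands, an E2F motif (TTTCCCGC, TTTGGCGC, TTTCGCGC or TTTGCCGC) was found in 3 of 47 genes (6.38%; RPL36, RPLP2 and RPS29), against 3.99% of all genes. The forkhead motif GTAAACA was found in 0 of 47 against 4.19%, and the E-box CACGTG in 3 of 47 (6.38%; RPL19, RPS19 and RPS28) against 8.77%.

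Each array gave 1 linear signal per probe set, scaled by the authors' software to the same trimmed mean of 500. On that scale the array median was 137 to 143 on the 6 arrays without OHT and 114 to 119 on the 8 arrays with OHT. For ACTB, the ratio of its 3′ to its 5′ control probe set, which goes up as RNA degrades, averaged 2.0 ± 0.06 (SD, n = 2) on the shFOXO707 arrays with OHT and lay between 1.49 and 1.74 elsewhere. The same ratio for GAPDH lay between 0.98 and 1.11 on all 14 arrays. FOXO1 had a mean signal of 501 in scrambled cells with OHT, 163 with shFOXO33 and 236 with shFOXO707, and FOXO3 had 1793, 307 and 810. Of the osteoblast markers 6 of 10 were above the filter, including ALPL and COL1A1, as were 0 of 6 blood, 3 of 4 epithelial and 2 of 4 neural markers. The number of arrays limits the precision of all values below.

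Because the median signal itself was lower with OHT, the members were compared on 2 scales, log2(signal + 16) as deposited and the same values minus the median of their array. Centring moves all genes of a comparison by the same amount, 0.23 for OHT in scrambled cells, so the order of the members and the distances between them are kept while the zero line moves. The SD of a gene within a group had a median over members of 0.057 on the log2 scale, against 0.11 over all tested genes and 0.057 over the 287 other genes with a mean signal above 5000. Relative to its own mean over all arrays, the median member lay at 0.07 ± 0.04 (SD, n = 4) in scrambled cells without OHT and at -0.09 ± 0.04 (SD, n = 4) with OHT as deposited. After centring the order turned, to -0.04 ± 0.04 and 0.02 ± 0.05 (SD, n = 4 each), with overlapping arrays. In shFOXO33 cells it was 0.14 on the array without OHT and 0.07 ± 0.06 (SD, n = 2) with OHT as deposited, and 0.0091 and 0.14 ± 0.05 after centring. In shFOXO707 cells it was -0.02 and -0.05 ± 0.07 (SD, n = 2) as deposited, and -0.17 and 0.03 ± 0.06 after centring. On both scales the shFOXO33 arrays with OHT were above both shFOXO707 arrays with OHT.

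**Figure D1:**
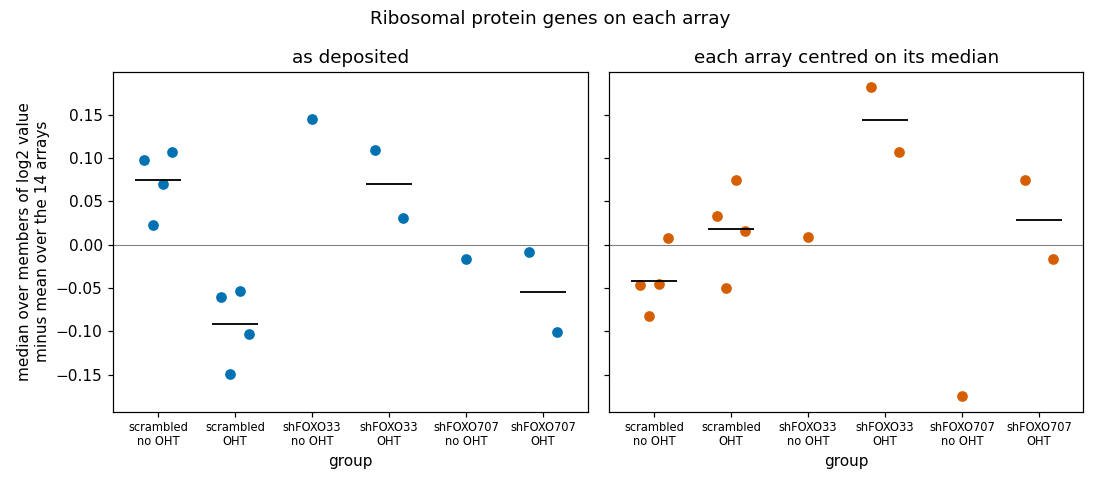
Median over the 54 members of each gene's log2 value minus its mean over the 14 arrays (vertical axis, log2), for each array in the 6 groups, as deposited (left) and after centring each array on its median (right); points are arrays and bars are means of groups with 2 or 4 arrays. Scrambled arrays with OHT lie below those without OHT on the left and overlap them on the right, and shFOXO33 with OHT lies above shFOXO707 with OHT in both panels.

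OHT in scrambled cells lowered most ribosomal protein signals slightly as deposited, and by about as much as it lowered the typical gene. With limma and Benjamini-Hochberg adjustment over 7720 genes, 31 of 54 members were called lower, where 46.4% of all genes were, and 0 were called higher, where 24% of all genes were (1 member was higher at an unadjusted p under 0.05). The median difference was -0.17 over the members and -0.23 over all tested genes. The large subunit had 18 of 33 genes called lower and the small subunit 13 of 21. All 4 arrays with OHT were below all 4 without for 37 members (49.9% of all genes) and above them for 1 (25.5%). After centring, 15 members were called higher (32.3% of all genes) and 1 lower (30.6%), with a median difference of 0.06. Of the 31 members lower as deposited, only RPL10L was also lower after centring. The members spread over a narrow range, with the middle of them between -0.23 (lower quartile) and -0.08 (upper quartile) as deposited. Quantile normalization gave 6 higher and 26 lower, with a member median of -0.05. Centring on the brightest genes gave 0 and 45, with a member median of -0.26. The shares of all genes called under these scalings are not given here, so neither pair of counts is set against them. The direction of the group as a whole thus depended on the scaling, while the order of its members is the same with deposited and centred values.

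**Figure D2:**
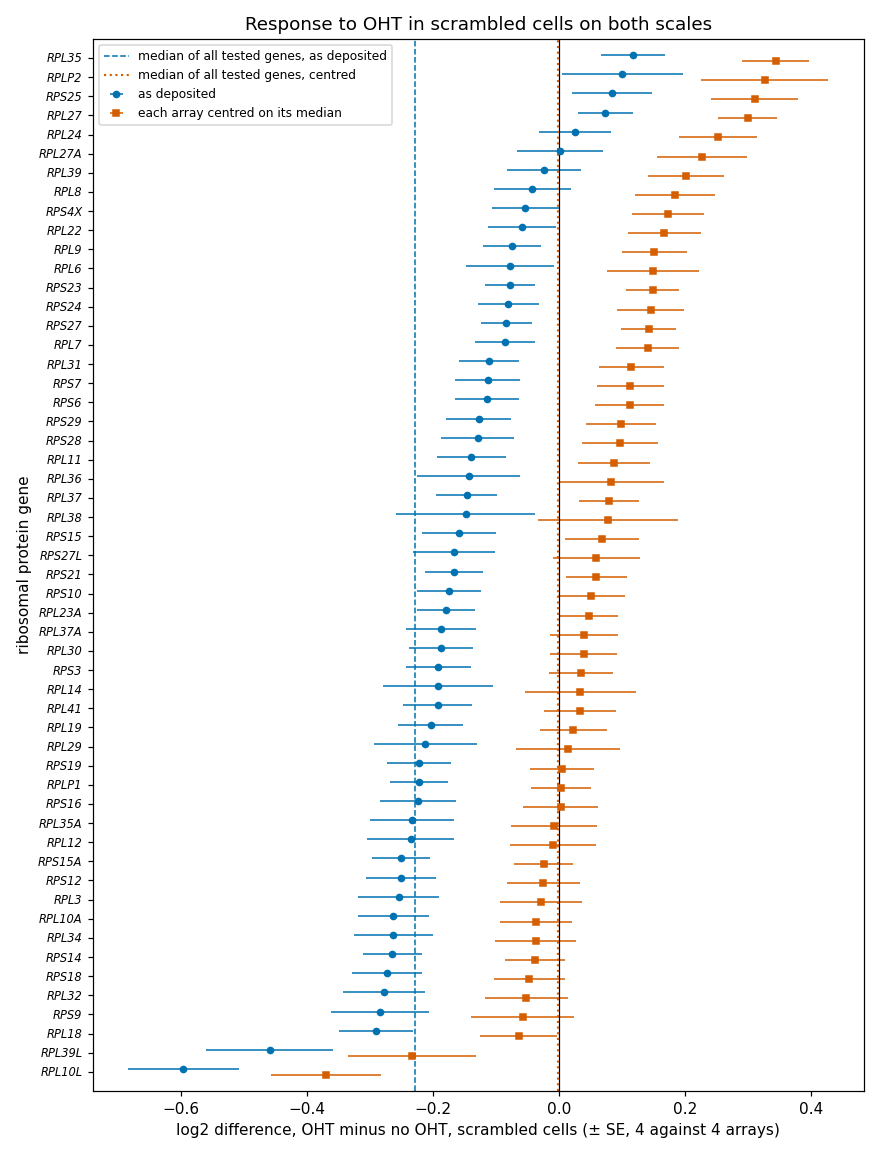
Log2 difference with OHT in scrambled cells for the 54 members (horizontal axis; error bars are SE, 4 against 4 arrays), ordered by the deposited value, as deposited (blue circles) and after centring each array on its median (orange squares), with the median of all tested genes as vertical lines. Centring shifts every member by the same amount, and RPL10L and RPL39L lie apart at the low end on both scales.

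RPL10L, a retrogene homolog of RPL10 best known from the testis, moved most. Its signal was 763, 763, 790 and 743 in scrambled cells without OHT and 469, 548, 462 and 528 with OHT. The groups did not overlap, and the difference was -0.60 ± 0.09 (SE; adjusted p = 3.44e-05) as deposited and -0.37 ± 0.09 (SE; adjusted p = 0.00197) after centring. It was also called lower under quantile normalization (-0.51) and after centring on bright genes (-0.69), the 1 member called the same way under all 4 scalings. RPL39L, a homolog of RPL39 that is likewise restricted in normal tissues, had signals of 620, 584, 609 and 604 without OHT and 425, 465, 447 and 405 with it. Its arrays did not overlap either, with a difference of -0.46 ± 0.10 (SE; adjusted p = 0.00104) as deposited and -0.23 (adjusted p = 0.0595) after centring, which was not called. Both are close in sequence to their widely expressed partners, and how much partner RNA their probe sets capture could not be told apart here.

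The partners differed from each other. RPL39, which lines the peptide exit tunnel, had signals of 14968, 15132, 15105 and 15983 without OHT and 15487, 14256, 15213 and 15205 with it. These overlapped, with a difference of -0.02 (adjusted p = 0.719) as deposited and 0.20 (adjusted p = 0.00996) after centring. RPL3, a core protein near the peptidyl transferase centre, was lower as deposited, at -0.25 ± 0.06 (SE; adjusted p = 0.00289), and stood at -0.03 (adjusted p = 0.727) after centring. RPL10 was measured only on a probe set that also names small nucleolar RNAs, and differed by -0.28 (adjusted p = 0.00080) and, centred, by -0.05 (adjusted p = 0.487). RPLP1 and RPLP2 form the stalk that recruits elongation factors. RPLP1 was lower as deposited, at -0.22 ± 0.05 (SE; adjusted p = 0.00068), and at 0.0037 after centring (adjusted p = 0.955). RPLP2 on its dim probe set differed by 0.10 (adjusted p = 0.364) and on a bright probe set naming small nucleolar RNAs as well by -0.04 (adjusted p = 0.498), so its sign depended on the probe set.

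At the low end among the bright members, RPL18 of the large subunit had signals of 12439, 11708, 12429 and 12526 without OHT and 9810, 9656, 10350 and 10328 with it. The groups were apart, with a difference of -0.29 ± 0.06 (SE; adjusted p = 0.000574) as deposited and -0.06 (adjusted p = 0.381) after centring. RPS14, a small subunit protein whose gene is lost in the 5q deletion of myelodysplastic syndrome, had 14863, 13797, 14790 and 14833 without OHT and 12474, 11658, 12479 and 11888 with it. Its arrays were apart too, at -0.26 ± 0.05 (SE; adjusted p = 0.000193), against -0.04 (adjusted p = 0.509) centred. The small subunit genes RPS18 (-0.27) and RPS15A (-0.25) were called lower in the same way as deposited, and stood at -0.05 and -0.02 after centring, not called.

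At the high end, RPL35, a protein at the mouth of the exit tunnel, had signals of 7768, 7762, 7732 and 8114 without OHT and 8680, 8529, 8367 and 8465 with it. It was the only member whose arrays with OHT were all above those without as deposited. Its difference was 0.12 ± 0.05 (SE; adjusted p = 0.0511) as deposited, just short of a call, and 0.34 ± 0.05 (SE; adjusted p = 5.83e-05) after centring. RPS25, known for its part in translation from some viral internal ribosome entry sites, was at 0.08 (adjusted p = 0.256) and 0.31 (adjusted p = 0.00121) on the 2 scales. RPL27 stood at 0.07 (adjusted p = 0.15) and 0.30 (adjusted p = 6.74e-05), and RPL24, which takes part in a bridge between the subunits, at 0.03 (adjusted p = 0.70) and 0.25 (adjusted p = 0.00277). The place of RPL24 depended on its probe set. Another bright probe set of this gene (mean signal 11650) was lower as deposited, at -0.18 (adjusted p = 0.00865 in a limma fit of all probe sets). RPS25, RPL27 and RPL24 were named after their values were seen. RPL18 and RPL35 lay at opposite ends of the bright members on both scales, and both carry a pyrimidine run at the start.

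**Figure D3:**
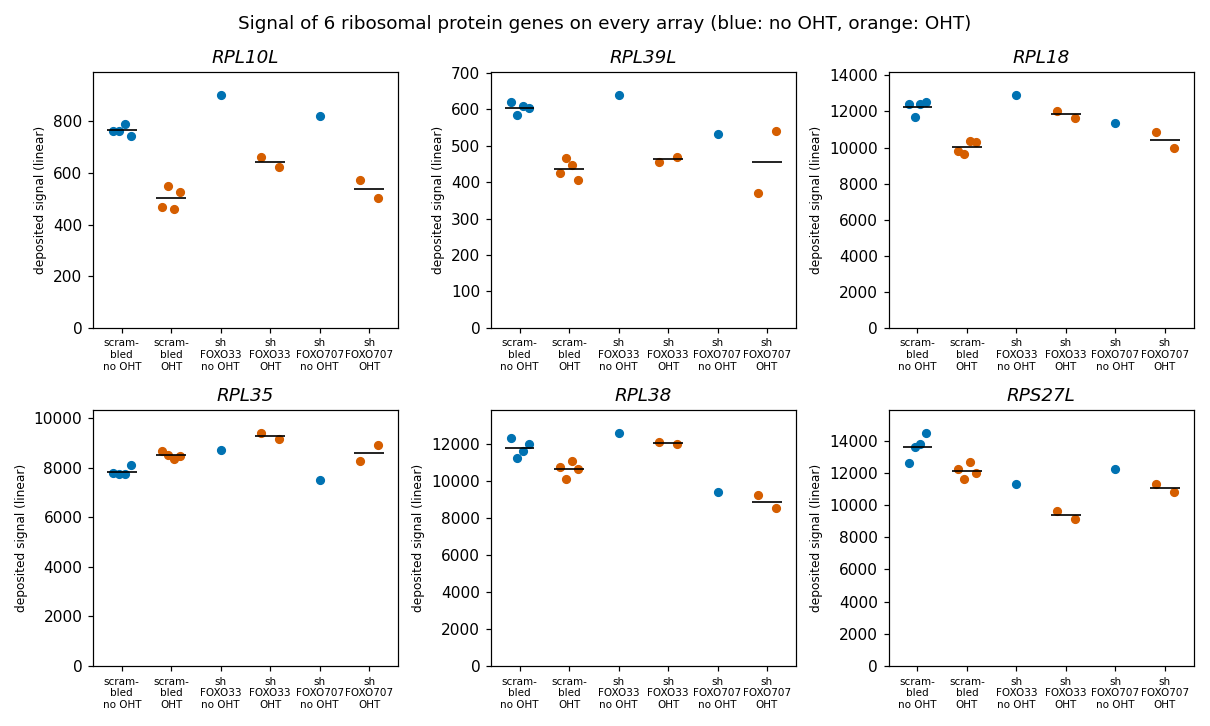
Deposited linear signal (vertical axis, from 0) of 6 members on every array, by group, with bars at the means of groups with 2 or 4 arrays; blue points are arrays without OHT and orange points arrays with OHT. RPL10L, RPL39L and RPL18 were lower with OHT in scrambled cells, the 4 RPL35 points with OHT lay above those without, RPL38 was lower in shFOXO707 cells than in shFOXO33 cells, and RPS27L was lowest in shFOXO33 cells with OHT.

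The value of a member also depended on its probe set. Several probe sets were available for 23 of the 55 genes, and for the 19 with several above the filter 13 had differences of the same sign with OHT in scrambled cells, with a median range of 0.16. In a limma fit of all probe sets, unused ones above the filter were called higher as deposited for RPL7, RPL37A and RPS10. These were at 0.15 (adjusted p = 0.035, mean signal 14345), 0.27 (adjusted p = 0.0082) and 0.20 (adjusted p = 0.043). Unused ones of RPL12, RPL24, RPL29, RPL31, RPS6 and RPS19, and others of RPS10, were called lower. The widest ranges belonged to RPL37A (from -1.10 to 0.27), RPS6 (-0.28 to 0.68), RPL38 (-0.15 to 0.31) and RPL35A (-0.23 to 0.22). In RPL37A, RPS6 and RPL35A 1 end of the range was a probe set below the filter. For RPS6, the target of the S6 kinases, the 3 probe sets above the filter lay closer together, at -0.28, -0.17 and -0.11. Of the probe sets used, 13 end in _x_at and 29 in _s_at, which marks probes that can match several transcripts, and signal from pseudogenes or related copies could not be told apart there. Adding probe sets that name 1 ribosomal protein and small nucleolar RNAs only brought in 11 further genes. Of these 7 were called lower and 0 higher as deposited, and 1 lower and 2 higher after centring, for OHT in scrambled cells.

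In knockdown cells, with both hairpins pooled, OHT left ribosomal protein signals nearer to their level without OHT as deposited. There 5 of 54 members were called lower (37.3% of all genes) and 0 higher (20.6%), with 2 higher at an unadjusted p under 0.05, and the median difference was -0.07 against -0.20 over all genes. The 5 were RPL10L (-0.54), RPL39L (-0.35), RPS27L (-0.21), RPS18 (-0.19) and RPL10A (-0.19). After centring, 23 were called higher (28.8%) and 1, RPL10L, lower (22.5%; -0.31, adjusted p = 0.0249), with a median of 0.15. RPL27A was highest on both scales, at 0.18 (adjusted p = 0.0718) and 0.41 (adjusted p = 0.00135), on a dim probe set. These counts rest on 2 arrays without OHT, 1 per hairpin. Without the shFOXO707 array 11 members were lower as deposited and 3 higher after centring. Without the shFOXO33 array 2 were lower and 4 higher as deposited, and 34 were higher after centring. Without either of the shFOXO707 arrays with OHT, 3 were lower as deposited. The shares of all genes called without these arrays are not given here. The centred call for RPL10L was lost without the shFOXO33 array lacking OHT and without shFOXO707 with OHT replicate 2.

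The responses to OHT in knockdown and in scrambled cells were compared directly by their interaction. It called 0 members higher and 0 lower on either scale, where 0.0777% and 0.272% of all genes were called (3 members higher and 0 lower at an unadjusted p under 0.05 as deposited, 2 and 0 after centring). The median interaction was 0.09, with 52 of 54 members above 0, against 0.03 over all genes. That near-uniform sign rested on the scaling and on single arrays. Quantile normalization left 27 members above and 27 below 0, and without the 1 shFOXO707 array lacking OHT the deposited median was 0.01, with 33 above 0. Without the 1 shFOXO33 array lacking OHT it was 0.18. It was highest for RPL34 (0.22 ± 0.10, SE; adjusted p = 0.455) and lowest for RPL27 (-0.09 ± 0.07, SE; adjusted p = 0.739). A fit that kept the 6 groups apart called 1 member, RPL37 (0.17), a name chosen after its value was seen.

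With both hairpins pooled, knockdown in the presence of OHT gave 1 call in each direction. RPS14 was called higher (14.7% of all genes) and RPS27L lower (8.01%), with 15 members higher and 1 lower at an unadjusted p under 0.05. The median difference was 0.10 against 0.04 over all genes. The call for RPS14 (0.14 ± 0.05, SE; adjusted p = 0.0485) lay at the threshold and was lost after centring (0.11, adjusted p = 0.129) and in 17 of 29 alternatives in all, among them leaving out any 1 of the scrambled arrays with OHT, of the shFOXO33 arrays with OHT or shFOXO707 with OHT replicate 1. Without shFOXO707 with OHT replicate 2, by contrast, 15 members were called higher, and without either of the knockdown arrays lacking OHT 3 were. The shares of all genes called without these arrays are not given here, so these counts are not set against them. After centring, with all arrays, 0 were called higher (11.7%; 2 at an unadjusted p under 0.05) and 1, RPS27L, lower (9.46%). RPL10L had the highest difference, 0.23 ± 0.09 (SE; adjusted p = 0.0798). Without OHT, 0 members were called higher (4.84%) and 0 lower (2.97%), with 1 in each direction at an unadjusted p under 0.05, and centring also gave 0 higher (3.89%) and 0 lower (3.6%; again 1 in each direction unadjusted). The extremes were RPL10L (0.17, adjusted p = 0.406) and RPS27L (-0.21, adjusted p = 0.138).

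RPS27L, a paralog of RPS27 that is known as a p53-induced gene, was the 1 member called lower with both hairpins pooled, where 49 of 54 members stood above 0. Its signals were 12271, 11602, 12661 and 12003 in scrambled cells with OHT, 9655 and 9169 with shFOXO33 and 11336 and 10834 with shFOXO707. All 4 knockdown arrays were below all scrambled arrays with OHT, and the shFOXO33 arrays were lowest. The pooled difference was -0.25 ± 0.07 (SE; adjusted p = 0.0153) as deposited and -0.28 ± 0.07 (SE; adjusted p = 0.0126) after centring, and it was called lower under all 4 scalings and without any 1 array as deposited. It lost its call in 3 of 29 alternatives, with shFOXO707 alone and on the arrays of the replicate block with or without the block. Taken alone, shFOXO33 gave -0.37 ± 0.05 (SE; adjusted p = 3.18e-05) and shFOXO707 -0.13 ± 0.05 (SE; adjusted p = 0.0546). Without OHT the signals were 12612, 13645, 13824 and 14461 in scrambled cells, 11321 with shFOXO33 and 12257 with shFOXO707, so both single arrays were below the scrambled range.

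The pooled values hide a difference between the hairpins. Against scrambled cells with OHT, shFOXO33 raised 39 of 54 members (27.8% of all genes) and lowered 1, RPS27L (21.5%), with a median of 0.17 against 0.06 over all genes. After centring 28 were higher (23.3%) and 2, RPS27L and RPL31, were lower (23.6%). Quantile normalization left 9 higher (26.4%) and the same 2 lower (21.3%), with a median of 0.05 against 0.04 over all genes. Under that scaling the share of members called higher was below that of all genes. With shFOXO707, 0 members were higher (24.6%), with 1 higher at an unadjusted p under 0.05, and 3 were lower (17.2%), RPL38 (-0.26), RPS28 (-0.14) and RPL29 (-0.13), with a median of 0.04 against 0.05. Centring added RPS27L to those lower (18.7%) and left 0 higher (21.5%; 0 at an unadjusted p under 0.05). Both hairpins are compared with the same scrambled arrays. Without OHT each hairpin had 1 array, so the fit takes its error wholly from the replicates of other groups and assumes that the lone array varies like them. A shift of that array as a whole would give calls too. On that footing shFOXO33 gave 7 members higher (14.6%) and 1 lower (14.8%), and shFOXO707 gave 0 higher (14.6%) and 3 lower (13%), RPL38, RPL29 and RPS7. After centring these counts were 3 higher (12.7%) and 1 lower (15.6%) for shFOXO33 and 0 higher (11.9%) and 7 lower (15.1%) for shFOXO707, with 0 higher at an unadjusted p under 0.05 for shFOXO707 on either scale. RPS28, RPL31 and RPS7 were named after their values were seen.

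The direct contrast of shFOXO707 with shFOXO33 in the presence of OHT, 2 against 2 arrays, called 24 members lower (21.4% of all genes) and 1 higher, RPS27L (22.1%). The median was -0.13 against -0.01 over all genes, and 51 of 54 members were below 0. The 24 comprised 19 of 33 large subunit and 5 of 21 small subunit genes. After centring 20 were lower (20.1%) and 1 higher (22.4%), and these 21 were all among the 25. Quantile normalization left 12 lower (21.3% of all genes) and 2 higher (21.3%), with a median of -0.05 against -0.01 over all genes. Under that scaling the share of members called lower was near that of all genes. The 12 called lower under all 4 scalings were RPL6, RPL8, RPL10A, RPL10L, RPL14, RPL29, RPL35A, RPL36, RPL38, RPL39, RPS9 and RPS28. Leaving out shFOXO33 with OHT replicate 1 or shFOXO707 with OHT replicate 2 lowered the number of calls on both scales. The centred median difference went from -0.12 to -0.084 and -0.085. Without shFOXO33 with OHT replicate 2 or shFOXO707 with OHT replicate 1 it was -0.17 in each case. As deposited, the median member was higher in replicate 1 than in replicate 2 of both groups (0.11 and 0.03, -0.0080 and -0.10). Each omission therefore leaves the replicates unbalanced. A fit with a replicate block gave more calls, as described below. The ACTB 3′/5′ ratio was 1.61 ± 0.02 (SD, n = 2) in the shFOXO33 and 2.0 ± 0.06 (SD, n = 2) in the shFOXO707 arrays compared here. For GAPDH the ratio was 1.01 ± 0.01 and 1.08 ± 0.05 (SD, n = 2 each). The part of RNA quality in the hairpin difference was not tested. Without OHT the contrast sets 1 array against 1, with its error borrowed in the same way, and its calls are no replicate check of those with OHT. There 53 of 54 members were below 0 as deposited, with 11 called lower (14.1%) and 0 higher (15.7%; 0 at an unadjusted p under 0.05), and centring gave 14 lower (15.1%) and 0 higher (14.7%). Quantile normalization left 36 below and 17 above 0, with a median of -0.03, where it was -0.16 as deposited. The median over all genes under that scaling was -0.02.

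RPL38, a surface protein of the large subunit known for its part in translating homeobox messages, differed most. Its signals with OHT were 12130 and 11998 with shFOXO33, 9259 and 8548 with shFOXO707 and 10749, 10118, 11118 and 10648 in scrambled cells. The hairpins lay on opposite sides of the scrambled arrays, and the difference between them was -0.44 ± 0.06 (SE; adjusted p = 1.01e-05). Without OHT its single arrays read 12596 with shFOXO33 and 9419 with shFOXO707, a difference of -0.42 with no replicates on either side. The probe set used ends in _x_at, and without _x_at probe sets RPL38 still differed by -0.48 (adjusted p = 0.000578) with OHT. That value came from a dimmer probe set ending in _s_at (mean signal 1911), which can also match several transcripts.

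RPL14, RPL29 and RPL36, all of the large subunit, came next. RPL14 had 8264 and 8178 with shFOXO33, 6307 and 6375 with shFOXO707 and 6619, 6447, 6289 and 6295 in scrambled cells with OHT. Its shFOXO33 arrays alone stood apart, and the hairpins differed by -0.37 ± 0.05 (SE; adjusted p = 9.33e-06). RPL29, also described as a heparin-binding protein, differed by -0.31 ± 0.05 (SE; adjusted p = 9.41e-05), with 10131 and 9751 against 8141 and 7880. RPL36 differed by -0.32 ± 0.05 (SE; adjusted p = 6.02e-05), and RPL39 by -0.23 ± 0.05 (SE; adjusted p = 0.00159). RPL10L differed by -0.25 ± 0.09 (SE; adjusted p = 0.0377), with 660 and 625 against 572 and 505, and lost its call in 6 of 26 alternatives, among them leaving out either shFOXO33 array or shFOXO707 with OHT replicate 2. RPS27L was the exception, higher with shFOXO707 by 0.24 ± 0.06 (SE; adjusted p = 0.00458).

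**Figure D4:**
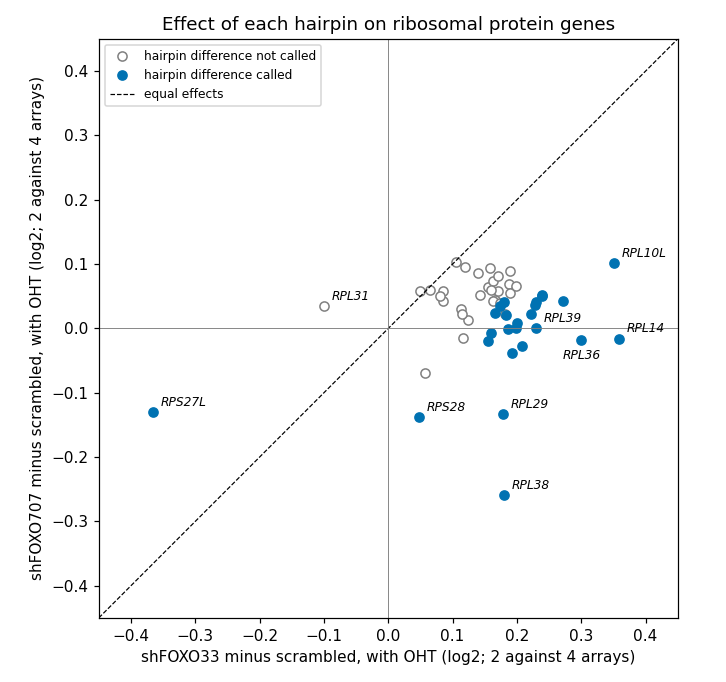
Log2 difference from scrambled cells with OHT for the 54 members with shFOXO33 (horizontal axis) and shFOXO707 (vertical axis), 2 against 4 arrays each, as deposited; filled points mark the 25 members whose difference between the hairpins was called, and the dashed line marks equal effects. Most members lie to the right of the dashed line with shFOXO707 values near 0, RPS27L lies to its left, and both axes share the same 4 scrambled arrays.

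Among the genes on probe sets shared with small nucleolar RNAs, RPL13A gave the widest differences and is named after its values were seen. RPL13A is known to leave the ribosome during the interferon response to silence target messages. Its signals were 8033, 8071, 8652 and 8883 in scrambled cells without OHT and 4948, 4874, 5387 and 5433 with OHT. With OHT they were 7957 and 7773 with shFOXO33 and 4967 and 4659 with shFOXO707, and without OHT 9909 and 7704. OHT lowered it in scrambled cells by 0.70 on the log2 scale as deposited (-0.70 ± 0.15, SE; adjusted p = 0.00102) and gave -0.48 (adjusted p = 0.0153) after centring. The hairpins differed by -0.71 ± 0.06 (SE; adjusted p = 2.83e-07). The probe set can match several transcripts and also carries small nucleolar RNA names, so which RNA changed could not be told apart.

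The other genes of ribosome production were taken from 5 lists, whose counts stand beside the shares of all genes given above for the same comparison. Of 51 measured ribosome biogenesis genes, which process and assemble the pre-ribosome, 35 were lower and 6 higher with OHT in scrambled cells as deposited, and 28 and 8 after centring, with medians of -0.66 and -0.44. The share lower was 68.6% as deposited (46.4% of all genes) and 54.9% after centring (30.6%). NOP16 (-2.09), DDX10 (-1.68), DDX21 (-0.80) and RSL24D1 (-0.78 after centring), all assembly factors, were lower on both scales. Of 13 genes of the RNA polymerase I machinery, 9 were lower (69.2%) and 3 higher, and 8 (61.5%) and 3 after centring. The subunit POLR1C differed by -1.59 and the selectivity factor subunits TAF1B and TAF1A by -0.94 and -1.13, while UBTF, the upstream binding factor, rose by 1.47. These 4 genes kept their sign and their call after centring.

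Of 27 translation factors, many of which also have TOP messages, 14 were lower with OHT in scrambled cells as deposited, a share of 51.9% that lies near the 46.4% of all genes, and 2 were higher. After centring 1 was lower and 4 higher. As deposited, EIF3J (1.02) and EEF1A2 (1.33) rose, EIF6, which keeps the subunits apart, fell by 0.56 on the log2 scale and EIF3E by 0.34. After centring EIF6 was still called lower (-0.33, adjusted p = 0.0035), while EIF3E was not called (-0.11, adjusted p = 0.11). Of 6 further genes that belong to or resemble ribosomal proteins, 4 were lower and 0 higher as deposited, and 1 in each direction after centring. RPL26L1, a homolog of RPL26, was at -0.58 and, centred, at -0.36 (adjusted p = 0.033). Of 17 regulators of ribosome synthesis, 7 were lower (41.2%) and 4 higher (23.5%), near the shares of all genes, and 6 in each direction after centring. MYC, which drives ribosome genes, was at -1.75 and its partner MAX at -1.47, while LARP1 (1.12) and the S6 kinase family gene RPS6KA3 (1.23) were higher. Another gene of that family, RPS6KB1, was lower, at -1.28 and, centred, at -1.06, so the family did not move in 1 direction. RPS6KB1 was named after its values were seen.

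Between the hairpins with OHT, the translation factors had 14 lower (51.9%, against 21.4% of all genes) and 5 higher (18.5%, against 22.1%) with shFOXO707, with EIF3H at -0.85 and EIF5 at 1.17. BTF3, a chaperone subunit that binds emerging chains at the ribosome, was at -0.52 and RPL26L1 at -0.52. Ribosome biogenesis genes had 16 lower (31.4%) and 10 higher (19.6%), with NHP2 at -0.84 and fibrillarin (FBL) at -0.40. These examples of the hairpin difference were chosen after their values were seen. The RNA polymerase I machinery had 1 lower, POLR1D (-0.39), and 3 higher. With knockdown and OHT, both hairpins pooled, 12 biogenesis genes were higher (23.5%, against 14.7% of all genes) and 4 lower (7.84%, against 8.01%), DDX21 at 0.38 and NOP16 at 0.52, and 6 translation factors were higher (22.2%) and 2 lower (7.41%). After centring 9 biogenesis genes were higher (17.6%, against 11.7% of all genes) and 4 lower (7.84%, against 9.46%). Only 3 translation factors were then higher (11.1%), near the share of all genes, and 2 lower (7.41%). Between the hairpins with OHT, centring left 13 translation factors lower (48.1%, against 20.1%) and 15 biogenesis genes lower (29.4%).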

How the data were processed

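RNA of 14 samples of U2OS ER-E2F1 cells was hybridised to 1 Affymetrix array each. The authors deposited 1 linear intensity per probe set, which the submitters' processing notes credit to MAS5 (version and background steps not given in the sources used here), and the mean after trimming 2% at each end was 500 on all arrays. Values were log2(signal + 16), so differences understate changes of dim genes. Probe sets naming 1 gene (19064 of 22277; 1043 named several and 2108 none) were kept above the 40th percentile of mean log2, 6.57 or a signal of 79.1, and each gene was represented by its brightest, giving 7720. Symbols were updated through Entrez identifiers and a RefSeq table.

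Differences were fitted with limma 3.58.1 in R 4.3.3 (lmFit, eBayes with trend) over all arrays in 4 groups with the hairpins pooled, or 6 groups for single hairpins, two-sided, with calls at p under 0.05 after Benjamini-Hochberg adjustment across all genes. The script was tested on simulated data. Array signals have no sequencing depth, and no detection call was used. Alternatives were 3 other scalings, other pseudocounts, filters, priors, probe set rules and groupings, a replicate block and leaving out each array. Replicate numbers not in the titles only name arrays.

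The members and lists were chosen with earlier results of these data known. Genes named were up to 5 called members each way per comparison by adjusted p, the extremes, members called on both scales, the 4 with the widest probe set ranges, the restricted homologs and stalk genes, those at the filter, and up to 4 genes per list.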

Additional observations from a re-analysis of the deposited data

Results flagged for a closer look

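Of the 46 groups of 4 scrambled arrays of named genes, 6 held an array far from the other 3, given as its gap over the range of the group. These were replicate 2 without OHT for RPL18 (0.885), RPL34 (0.929) and RPS14 (0.934), each low, replicate 4 without OHT for RPL35 (0.903) and RPL39 (0.834), each high, and replicate 2 with OHT for RPS6 (0.892), low. Each gap passes the critical value of Dixon's test, which chance passes in about 1 in 20 groups.

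The effects of the hairpins with OHT differed by test for 25 members. Among the named genes the difference of shFOXO707 minus shFOXO33 was -0.25 for RPL10L, -0.37 for RPL14, -0.31 for RPL29, -0.32 for RPL36, -0.44 for RPL38, -0.23 for RPL39 and 0.24 for RPS27L.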

How the results depend on the processing

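Counts of ribosomal protein genes called depended most on scaling and on how the hairpins entered. They are listed here without the shares of all genes under the same setting. They therefore show how the calls moved, not how the members compare with other genes. For OHT in scrambled cells, higher calls went from 0 to 15 after median centring, 6 after quantile normalization and 1 with 6 groups, with either hairpin alone, with probe sets averaged or without _x_at probe sets, and lower calls from 31 to 1 after centring. For OHT in knockdown cells, higher calls went from 0 to 23 (centring), 4 (quantile), 1 (no filter or shFOXO33 alone), 3 (6 groups) and 2 (shFOXO707 alone), and lower calls from 5 to 1 (centring), 15 (quantile or 6 groups), 35 (centring on bright genes), 2 (no filter or no trend) and 8 (shFOXO33 alone). For knockdown with OHT, higher calls went from 1 to 0 (centring, no filter, no trend or shFOXO707 alone), 29 (6 groups), 39 (shFOXO33 alone), 3 (probe sets averaged) and 2 (no _x_at probe sets), and lower calls from 1 to 3 (shFOXO707 alone). Without OHT, higher calls went from 0 to 1 (quantile, bright genes or no _x_at probe sets), 2 (6 groups) and 7 (shFOXO33 alone), and lower calls to 1 (6 groups or shFOXO33 alone) and 5 (shFOXO707 alone). The interaction called 1 with 6 groups, and the hairpin difference went from 25 to 14 after quantile normalization. Leaving out each array gave 0 to 1 higher and 26 to 35 lower for OHT in scrambled cells, 0 to 4 and 2 to 11 in knockdown cells, 0 to 15 and 1 to 1 for knockdown with OHT, 0 to 0 for knockdown without OHT and for the interaction, and 14 to 29 for the hairpin difference. A group of 2 with 1 array left out was assumed to vary like the others. Over all tested genes same-numbered arrays did not deviate together (correlations from -0.06 to 0.05), so the numbers were not taken as pairs, although the median member was higher in replicate 1 than in replicate 2 of all 4 groups that have both (0.10 and 0.02, -0.06 and -0.15, 0.11 and 0.03, -0.0080 and -0.10). With the replicate block, OHT in scrambled cells gave 1 higher and 42 lower, as did the same arrays with no replicate block, knockdown with OHT gave 0 and 0 either way, and the hairpin difference gave 39, against 21 on the same arrays with no replicate block. Differences that changed sign were, for OHT in scrambled cells after centring, RPL37A (0.0392), RPL38 (0.0780), RPL39 (0.20, and 0.0854 after quantile normalization), RPLP1 (0.0037) and RPS6 (0.11), with probe sets averaged RPL37A (0.0431) and RPL38 (0.0801), without _x_at probe sets RPL38 (0.0752) and with small nucleolar RNA host probe sets RPLP2 (-0.0386). Leaving out each array, RPL39 ranged from -0.0389 to 0.0008. For OHT in knockdown cells they were, after centring, RPL10A (0.0391), RPS18 (0.0360) and RPS27L (0.0197), and with host probe sets RPL27A (-0.0568). The cause was not tested, beyond the shift that centring itself makes. Alternatives that join centring with another change, and the block's arrays without the block, were chosen after seeing the data. No detection call was used, so dim members such as RPLP2 and RPL27A are least certain.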
